A study of Homo sapiens with 15 samples.

Results

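The immediate-early genes described here are EGR1, FOS, FOSL1, FOSL2, JUN, JUNB, JUND, IER2, IER3 and MYC. They were chosen by name as a list of 10 genes, with no threshold on a measured value. All 10 were present in both deposited tables, with 18473 listed genes in that of NCI-N87 and 18346 in that of SNU-484, and none was removed by the filter on low counts. Of the 10 products, EGR1, MYC and the members of the FOS and JUN families are DNA-binding transcription factors. IER2 is a nuclear protein, and IER3 is a regulator of cell survival and not a DNA-binding factor. Both cell lines come from gastric cancers. NCI-N87 carries extra copies of the HER2 gene, whereas SNU-484 has little HER2. NCI-N87 cultures had vehicle (acetate buffer with sorbitol), trastuzumab or T-DXd, while SNU-484 cultures had vehicle or T-DXd. Each drug was given at 1 µg/ml for 72 h, both lines are labelled wild type and all cultures grew in medium with fetal bovine serum. The antibody trastuzumab binds HER2, and in T-DXd (trastuzumab deruxtecan) it carries a topoisomerase I inhibitor. The 5 groups had 3 biological replicates each, 15 libraries in all, and each group comes from a single cell line, so that the level of HER2 and every other property of the lines cannot be told apart.

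Immediate-early genes are transcribed within minutes of a stimulus, without new protein synthesis, when kinases such as ERK, JNK and p38 act on factors that are already present at their promoters. Their mRNAs are short-lived, which lets their levels follow the signal closely. FOS and JUN proteins pair to form AP-1, which binds the sequence TGAGTCA, while EGR1 binds GC-rich sites and MYC, paired with MAX, binds CACGTG. A level after 72 h of drug is a standing level under treatment, not the first response.

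The libraries held 47990460 to 64623697 counts each for NCI-N87 and 46666533 to 66581448 each for SNU-484, with the fewest in SNU-484 T-DXd replicate 3. That library differed most from the others of its group, and trastuzumab replicate 2 differed most from the others of its group in NCI-N87. Every listed gene had at least 1 count in every library, so genes without reads in some library were not covered. The labels call the SNU-484 controls vehicle, while their column names carry the letters iso, and whether both lines had the same control was not tested. Marker sums are in CPM (counts-per-million) of the library total, without TMM scaling. Values of single genes are in CPM scaled by TMM, within each line unless stated otherwise. Of 17 gastric epithelial markers, 9 were listed in NCI-N87. Their sum was 9781 to 9843 CPM with vehicle, 9202 to 9462 CPM with trastuzumab and 11745 to 12011 CPM with T-DXd. In SNU-484 6 were listed, at a sum of 9.45 to 11.9 CPM, with EPCAM, KRT8 and CDH1 among them and KRT18 and KRT19 not listed, so the defining epithelial mRNAs were almost absent. Fibroblast and endothelial markers (7 of 11 listed) summed to 1443 to 1556 CPM with vehicle and 1621 to 1897 CPM with T-DXd in SNU-484. In NCI-N87 3 of the 11 summed to 2.70 to 3.37 CPM with vehicle, 3.78 to 3.88 CPM with trastuzumab and 8.90 to 11.3 CPM with T-DXd. Leukocyte markers in NCI-N87 (5 of 12 listed) were CD14, CD68, LYZ, ITGAM and NCAM1. They summed to 67.1 to 69.3 CPM with vehicle, 71.0 to 73.9 CPM with trastuzumab and 89.2 to 92.0 CPM with T-DXd. Of the 5, CD68 and ITGAM were higher and LYZ lower with T-DXd by the test described below. In SNU-484 4 of the 12 (PTPRC, CD14, CD68 and CD163) summed to 212 to 221 CPM with vehicle and 172 to 196 CPM with T-DXd. The part of these shifts in the results was not tested. ERBB2, which encodes HER2, measured 11406 ± 116 CPM in vehicle-treated NCI-N87 and 291 ± 4.99 CPM in vehicle-treated SNU-484 (SD, n = 3, both lines scaled together), a 39.2-fold difference.

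Counts were compared with edgeR's quasi-likelihood test, and the words rise and fall are kept for a Benjamini-Hochberg adjusted p under 0.05 over all genes tested. Fold changes are on the log2 scale with the standard error (SE). T-DXd raised 5 of the 10 genes in NCI-N87 and lowered 4, beside 29.1% of 17394 genes higher and 29.5% lower. In SNU-484 T-DXd lowered 5 and raised 0 of the 10, beside 11.2% of 16876 genes higher and 9.65% lower. Leaving out T-DXd replicate 3 gave 7 of the 10 in place of 5, and 5477 of all genes in place of 3526. Trastuzumab in NCI-N87 raised 3 and lowered 2, beside 3.65% of genes higher and 6.09% lower. The median log2 fold change of the 10 was 0.08, -0.33 and -0.01 in this order, beside -0.01, 0.00 and 0.01 for all genes. These comparisons within NCI-N87 share the vehicle libraries. In bulk RNA a change in the number of cells in a given state and a change in mRNA per cell cannot be told apart.

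**Figure D1:**
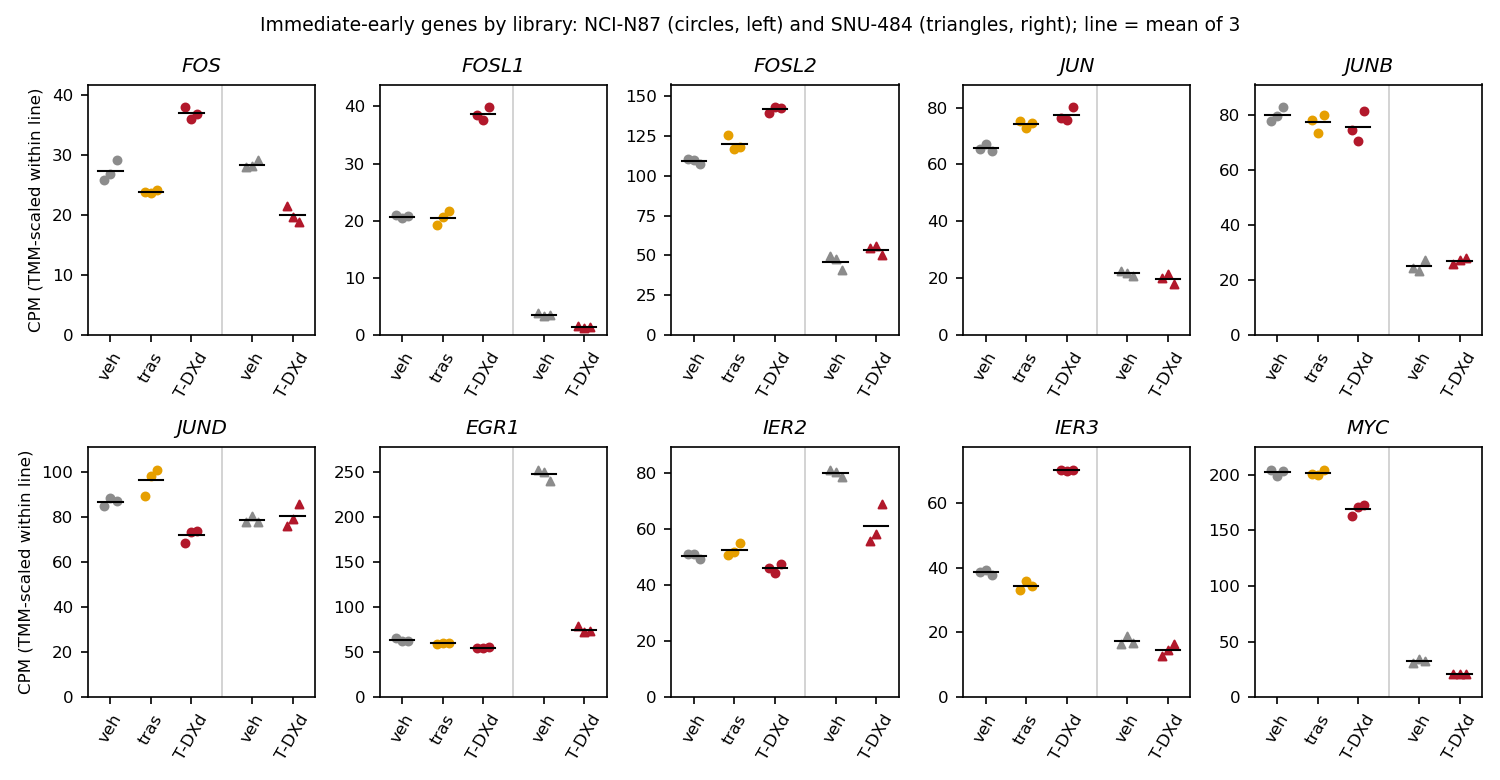
Level in CPM (vertical axis, starting at 0) of the 10 genes in each library, with NCI-N87 as circles and SNU-484 as triangles, vehicle in grey, trastuzumab in orange, T-DXd in red and a line at the mean of 3 libraries. FOSL1 and IER3 stand higher in every T-DXd library of NCI-N87 than in any vehicle library, and EGR1 in SNU-484 lies at 72.5 to 79.0 CPM with T-DXd and 240.1 to 252 CPM with vehicle.

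EGR1, a zinc finger factor that serum and growth factors induce through ERK, showed the largest change of the 10 genes, and it did so in SNU-484. The gene has 2 exons on chromosome 5 (138465479 to 138469303 of GRCh38, plus strand). The 3 vehicle-treated SNU-484 libraries had 252, 250.1 and 240.1 CPM and the 3 T-DXd libraries 79.0, 72.5 and 73.3 CPM. The groups lay far apart, with a 3.30-fold lower level under T-DXd. The log2 fold change was -1.72 ± 0.06 (SE, adjusted p = 3.53e-06, edgeR), rank 7 from the lowest among 16876 genes. In NCI-N87 the vehicle libraries had 65.9, 62.5 and 62.7 CPM, the trastuzumab libraries 58.7, 60.6 and 59.99 CPM and the T-DXd libraries 55.0, 55.1 and 55.3 CPM. EGR1 thus fell with T-DXd here as well, but by only 1.16-fold (-0.21 ± 0.03, adjusted p = 1.72e-05, edgeR). With trastuzumab the value was -0.09 ± 0.03 and did not pass (adjusted p = 0.0711, edgeR). Over all alternatives the adjusted p was 0.0444 to 0.269, the lowest with DESeq2. EGR1 was lower with T-DXd than with trastuzumab (-0.12 ± 0.03). After T-DXd, EGR1 stood at 60.6 ± 0.0556 CPM in NCI-N87 and 75.2 ± 3.59 CPM in SNU-484 (SD, n = 3, both lines scaled together), against 68.9 ± 2.07 and 248 ± 7.52 CPM with vehicle.

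The upstream sequences of EGR1, FOS and JUND are given here, and whether their motifs relate to the responses of these genes was not tested. Each is the 250 bases before the RefSeq start site, read 5′ to 3′ on the strand of the gene, with CArG boxes, TGACGTCA and TATAAA in capitals. RefSeq promoter windows of GRCh38.p14 were matched by symbol for 7 of the 10 genes.
EGR1 (chr5:138465229-138465478, plus strand): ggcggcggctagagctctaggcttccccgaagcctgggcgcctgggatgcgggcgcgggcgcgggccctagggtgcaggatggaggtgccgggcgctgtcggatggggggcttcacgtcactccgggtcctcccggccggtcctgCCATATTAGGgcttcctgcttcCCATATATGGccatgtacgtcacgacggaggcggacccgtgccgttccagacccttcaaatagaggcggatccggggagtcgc
FOS (chr14:75278578-75278827, plus strand): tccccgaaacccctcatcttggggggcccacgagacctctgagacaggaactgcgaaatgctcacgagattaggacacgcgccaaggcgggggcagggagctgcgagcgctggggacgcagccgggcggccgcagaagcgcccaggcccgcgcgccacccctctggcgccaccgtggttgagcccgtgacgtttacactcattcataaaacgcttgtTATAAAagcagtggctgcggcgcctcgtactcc
JUND (chr19:18281623-18281872, minus strand): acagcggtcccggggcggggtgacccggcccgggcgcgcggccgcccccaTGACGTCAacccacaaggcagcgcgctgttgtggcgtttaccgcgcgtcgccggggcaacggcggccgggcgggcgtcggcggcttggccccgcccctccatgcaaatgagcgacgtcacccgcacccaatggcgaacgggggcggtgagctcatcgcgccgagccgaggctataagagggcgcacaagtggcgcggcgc
CArG boxes, the motif of serum response factor, were found in EGR1 with first bases at -105 and -83, counted back from the start site with the last base before it as -1, and in none of the other 6 windows. They do not overlap each other. Of 35116 RefSeq promoter windows of the same length, 1.29% hold a CArG box. JUND has TGACGTCA, the motif of cAMP and ATF factors, from position -200 (1.85% of windows). TATAAA was found in FOS and JUNB, from positions -33 and -31 (11.5% of windows), and TGAGTCA in FOSL2 just after its start (4.95%). CACGTG (7.26%) and GCGTGGGCG (0.795%) were in none of the 7 windows. Both strands were searched, over the 250 bases shown and the 50 bases after the start. Motifs farther from the start were not covered for any gene, FOS among them. A match is a description of these letters and was not tested as a binding site.

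FOS-family genes rose together in NCI-N87 under T-DXd. FOS, the classical early AP-1 subunit (chromosome 14, 75278828 to 75282230, 4 exons), had 25.9, 26.8 and 29.1 CPM in the vehicle libraries and 38, 36.0 and 36.9 CPM in the T-DXd libraries. It rose by 0.44 ± 0.05 (SE, adjusted p = 4.37e-07, edgeR), with no overlap between the groups. With trastuzumab FOS was at 23.8, 23.7 and 24.2 CPM, below every vehicle library. It fell (-0.19 ± 0.05, SE, adjusted p = 0.0211, edgeR), a call that ended without vehicle replicate 3 (adjusted p = 0.122), trastuzumab replicate 1 (0.0594) or trastuzumab replicate 2 (0.057). The adjusted p of this result ran from 0.00377 to 0.122 over all alternatives. Between the drugs FOS was 1.55-fold higher with T-DXd (0.63 ± 0.05). In SNU-484 the direction was the opposite, with 28.0, 28.1 and 29.1 CPM in vehicle libraries and 21.5, 19.8 and 18.8 CPM in T-DXd libraries. All 3 treated libraries lay below all 3 controls, and the change was -0.50 ± 0.06 (adjusted p = 0.00178, edgeR).

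FOSL1, which encodes FRA1, an AP-1 subunit of migrating and wounded epithelia, had the largest rise of the 10 genes in NCI-N87. The gene (chromosome 11, 65892049 to 65900545, 4 exons) had 21.0, 20.4 and 20.8 CPM with vehicle, 19.2, 20.6 and 21.8 CPM with trastuzumab and 38.6, 37.5 and 39.9 CPM with T-DXd. Vehicle and trastuzumab libraries were intermingled, and the T-DXd libraries stood apart from both. T-DXd raised FOSL1 1.86-fold (0.90 ± 0.05, adjusted p = 1.23e-10, edgeR), and 5.11% of genes tested had a higher log2 fold change, whatever their adjusted p. With trastuzumab the log2 fold change had an interval of -0.12 to 0.10 (95%). In SNU-484 FOSL1 was scarce, at 3.90, 3.24 and 3.45 CPM with vehicle, and lower still at 1.49, 1.22 and 1.42 CPM with T-DXd. This was a 2.56-fold fall (-1.36 ± 0.14, adjusted p = 0.000684, edgeR), rank 19 from the lowest among all genes tested.

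FOSL2, which encodes FRA2, was the FOS-family gene that rose with both drugs in NCI-N87. The vehicle libraries had 110.4, 109.7 and 107 CPM, the trastuzumab libraries 126, 117 and 118 CPM and the T-DXd libraries 139.6, 143 and 142 CPM, and the 3 groups did not overlap. The rise was 0.38 ± 0.03 with T-DXd (adjusted p = 3.86e-09, edgeR) against 0.14 ± 0.03 with trastuzumab (adjusted p = 0.00457, edgeR). In SNU-484 FOSL2 had 49.6, 47.4 and 40.8 CPM with vehicle and 54.5, 55.9 and 49.9 CPM with T-DXd. It was the only gene of these 3 with a positive value in SNU-484, 0.22 ± 0.08, which did not pass (interval 0.03 to 0.40, adjusted p = 0.0891, edgeR). Without T-DXd replicate 3 the value was 0.27 and passed (adjusted p = 0.0102, in a range of 0.0102 to 0.275 over all alternatives). FOSL2 spans 24460 bases on chromosome 2 (28392858 to 28417317) and overlaps the antisense gene FOSL2-AS1, which is listed in neither table.

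The make-up of the FOS family differed between groups. Per kilobase of transcript, FOSL1 made up 29.4 ± 0.545% of the summed FOS, FOSL1 and FOSL2 level in vehicle-treated NCI-N87, 29.2 ± 1.68% with trastuzumab and 37.0 ± 0.615% with T-DXd (SD, n = 3). The summed level was 41.4 ± 0.539, 41.3 ± 0.574 and 61.4 ± 0.844 CPM per kilobase, in the same order. In SNU-484 FOS made up most of the sum, 60.3 ± 2.62% with vehicle and 52.1 ± 1.16% with T-DXd, and FOSL1 only 9.24 ± 0.725% and 4.42 ± 0.484%. FOSL2 went from 30.5 ± 2.45% to 43.5 ± 1.52% of the SNU-484 sum. The summed level in SNU-484 was 22.4 ± 0.527 CPM per kilobase with vehicle and 18.3 ± 1.01 with T-DXd, and the 3 libraries of each group did not overlap.

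The JUN family encodes proteins that bind DNA as partners of FOS or of each other. JUN, which JNK activates, is a gene of 1 exon on chromosome 1 (58780791 to 58784047). It had 65.4, 67.0 and 64.6 CPM with vehicle, 75.3, 72.7 and 74.5 CPM with trastuzumab and 76.3, 75.6 and 80.1 CPM with T-DXd in NCI-N87. Both drug groups lay above every vehicle library, by 0.24 ± 0.03 for T-DXd (adjusted p = 3.2e-06, edgeR) and 0.18 ± 0.03 for trastuzumab (adjusted p = 0.00164, edgeR). The difference between the drugs did not pass (0.06 ± 0.03, interval -0.00 to 0.12, adjusted p = 0.0973, edgeR). In SNU-484 JUN had 22.5, 21.8 and 20.8 CPM with vehicle and 20.2, 21.4 and 17.8 CPM with T-DXd, groups that overlapped (-0.13 ± 0.08, interval -0.31 to 0.05, not past the threshold).

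JUND, the JUN-family gene that is expressed most steadily in resting cells (chromosome 19, 18279694 to 18281622, 1 exon), moved in opposite directions with the drugs in NCI-N87. Vehicle libraries had 85.2, 88.7 and 87.2 CPM, trastuzumab libraries 89.7, 98.2 and 101 CPM and T-DXd libraries 68.6, 73.5 and 73.8 CPM. T-DXd lowered JUND by 1.21-fold (-0.27 ± 0.04, adjusted p = 1.38e-05, edgeR), with no overlap. The rise with trastuzumab was 0.15 ± 0.04 (adjusted p = 0.024, edgeR). It no longer passed without vehicle replicate 1 (adjusted p = 0.102), vehicle replicate 3 (0.0717), trastuzumab replicate 2 (0.077) or trastuzumab replicate 3 (0.126), and the adjusted p ran from 0.00314 to 0.126 over all alternatives. Between the drugs the difference was -0.42 ± 0.04 (adjusted p = 9.83e-08, edgeR). In SNU-484 JUND had 77.8, 80.7 and 77.8 CPM with vehicle and 76.2, 79.3 and 86.1 CPM with T-DXd, with a log2 fold change between -0.10 and 0.17 (95% interval).

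JUNB, which in many cells restrains growth by JUN, passed no test of a drug against vehicle. In NCI-N87 it had 78.0, 79.7 and 82.9 CPM with vehicle, 78.5, 73.6 and 80.1 CPM with trastuzumab and 74.8, 70.8 and 81.6 CPM with T-DXd, and the groups overlapped. In SNU-484 it had 24.6, 23.2 and 27.1 CPM with vehicle and 25.9, 27.3 and 27.9 CPM with T-DXd, again with overlap. The interval of its log2 fold change with T-DXd was -0.18 to 0.01 in NCI-N87 and -0.05 to 0.28 in SNU-484. Without T-DXd replicate 3 of NCI-N87 the value was -0.14 and passed (adjusted p = 0.00795, edgeR, in a range of 0.00795 to 0.497 over all alternatives). JUNB (chromosome 19, 12791486 to 12793315, 1 exon) overlaps HOOK2, which had 1777 to 2630 counts per NCI-N87 library beside 3530 to 5265 for JUNB. HOOK2 fell with T-DXd in NCI-N87 (-0.31 ± 0.05, adjusted p = 6.19e-05, edgeR). Whether reads were counted by strand is not given in the sources used here, so reads of the shared stretch may belong to either gene.

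Per kilobase of transcript, JUN made up 18.5 ± 0.451% of the JUN-family sum in vehicle-treated NCI-N87 and 23.2 ± 0.284% with T-DXd, while JUND went from 41.4 ± 0.400% to 36.4 ± 1.44% (SD, n = 3). In SNU-484 the shares of JUN, JUNB and JUND each overlapped between vehicle and T-DXd, and JUND made up 66.8 ± 1.44% and 66.7 ± 1.41%. The FOS-family sum thus went up beside a JUN-family sum of 109 ± 1.93 CPM per kilobase with vehicle and 102 ± 4.32 with T-DXd in NCI-N87, where the groups overlapped for the JUN family only.

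**Figure D2:**
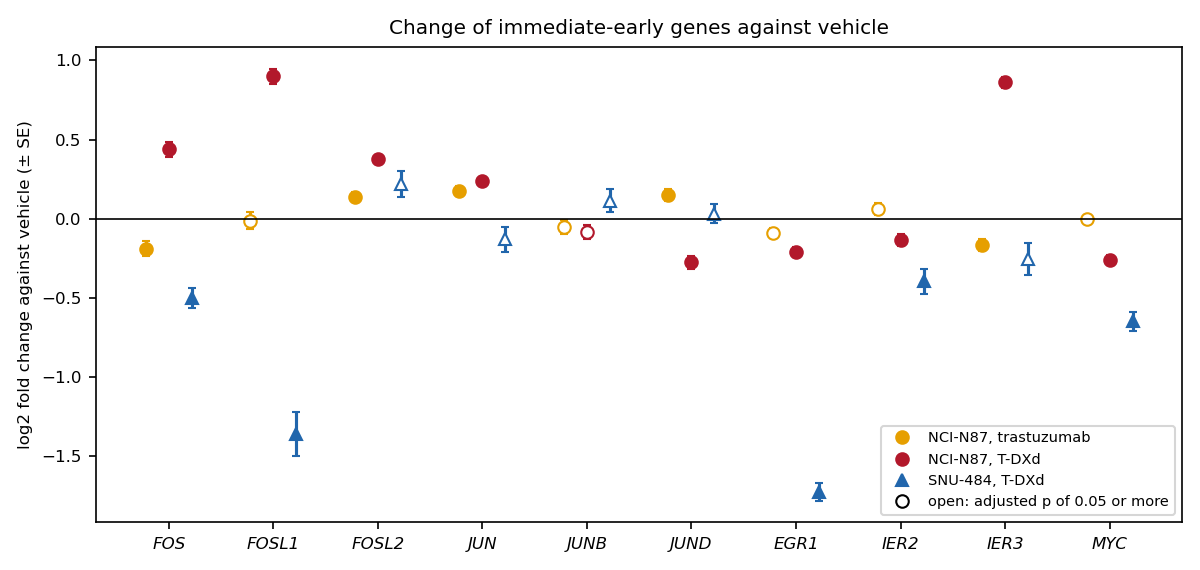
Log2 fold change against vehicle (vertical axis, ± SE) of the 10 genes for trastuzumab in NCI-N87 (orange), T-DXd in NCI-N87 (red) and T-DXd in SNU-484 (blue triangles), with open symbols where the adjusted p was 0.05 or more. FOS and FOSL1 lie above 0 in NCI-N87 and below 0 in SNU-484 with T-DXd, while EGR1, IER2 and MYC lie below 0 in both.

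IER3, a short-lived protein induced by stress and growth signals that modulates apoptosis and ERK signalling, rose almost as much as FOSL1 in NCI-N87. The gene (chromosome 6, 30743199 to 30744547, 2 exons) had 38.8, 39.4 and 37.6 CPM with vehicle and 70.3, 69.7 and 70.2 CPM with T-DXd, a 1.82-fold rise (0.86 ± 0.04, adjusted p = 3.87e-12, edgeR). With trastuzumab it had 33.1, 35.9 and 34.2 CPM, below every vehicle library. This fall (-0.17 ± 0.04, SE, adjusted p = 0.0102, edgeR) just missed the threshold without trastuzumab replicate 1 (adjusted p = 0.0503, in a range of 0.000948 to 0.0503 over all alternatives). The drugs thus took IER3 in opposite directions, and T-DXd stood 2.04-fold above trastuzumab (1.03 ± 0.04, adjusted p = 7.41e-13, edgeR). In SNU-484 IER3 had 16.5, 18.8 and 16.7 CPM with vehicle and 12.9, 14.4 and 16.4 CPM with T-DXd. That difference did not pass (-0.26 ± 0.10, adjusted p = 0.103, edgeR), but it did without T-DXd replicate 3 (-0.35, adjusted p = 0.00602, in a range of 0.00602 to 0.299 over all alternatives). The overlapping antisense gene IER3-AS1 had 1 to 6 counts per NCI-N87 library and 119 to 157 per SNU-484 library, where its log2 fold change was -0.07 ± 0.15 (adjusted p = 0.786, edgeR), beside 766 to 1181 counts for IER3.

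IER2, a nuclear immediate-early protein (chromosome 19, 13150411 to 13154911, 2 exons), fell with T-DXd in both lines. NCI-N87 had 51.1, 51.1 and 49.4 CPM with vehicle and 46.0, 44.5 and 47.5 CPM with T-DXd (-0.14 ± 0.04, adjusted p = 0.00532, edgeR). With trastuzumab the libraries had 50.9, 51.9 and 55.0 CPM, a range that overlaps vehicle (0.06 ± 0.04, interval -0.02 to 0.14). SNU-484 had 81.3, 80.6 and 78.7 CPM with vehicle and 55.6, 58.3 and 69.02 CPM with T-DXd (-0.40 ± 0.08, adjusted p = 0.0104, edgeR). The treated libraries were all below the controls, and T-DXd replicate 3, which also stood apart over all genes, was the nearest to them.

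MYC, which drives ribosome production and growth, also fell with T-DXd in both lines. In NCI-N87 it had 205, 199 and 204 CPM with vehicle and 163, 171 and 173 CPM with T-DXd, a 1.20-fold fall (-0.26 ± 0.03, adjusted p = 3.08e-07, edgeR). With trastuzumab MYC was at 201, 200.1 and 205 CPM, intermingled with vehicle, and the interval of the log2 fold change was -0.06 to 0.05. In SNU-484 MYC had 31.1, 34.5 and 32.5 CPM with vehicle and 20.6, 21.3 and 20.8 CPM with T-DXd, a 1.56-fold fall (-0.65 ± 0.06, adjusted p = 0.00042, edgeR). The T-DXd libraries of SNU-484 lay within 1 CPM of each other and well below the controls.

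T-DXd was next compared with trastuzumab, the same antibody without the linked inhibitor, in NCI-N87. Of the 10 genes, IER3, FOSL1, FOS and FOSL2 were higher with T-DXd, and JUND, MYC, IER2 and EGR1 lower, beside 28.3% of all genes higher and 29.4% lower. JUN and JUNB (-0.03 ± 0.04) did not pass. The differences not yet given were 0.91 ± 0.05 for FOSL1, 0.24 ± 0.03 for FOSL2, -0.20 ± 0.04 for IER2 and -0.26 ± 0.03 for MYC (SE). The same 8 genes passed in each run without 1 library.

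Whether the effect of T-DXd differed between the lines was tested in a joint fit of the 12 vehicle and T-DXd libraries. The effect was higher in NCI-N87 for 7 of the 10 genes and lower for 1, beside 22.5% of 14704 genes higher and 19.4% lower. With upper-quartile factors in place of TMM, 2678 genes were higher and 3504 lower in place of 3302 and 2848. FOSL1 differed most (2.28 ± 0.12 on a log2 scale, SE, with adjusted p = 2.26e-08, edgeR), and 0.265% of genes had a larger positive difference. EGR1 followed with 1.54 ± 0.06 (adjusted p = 2.7e-09, edgeR), where both lines had a fall and that of SNU-484 was deeper. IER3 (1.14 ± 0.10) and FOS (0.96 ± 0.08) had a rise in NCI-N87 beside negative values in SNU-484. MYC (0.41 ± 0.06) and JUN (0.39 ± 0.08) differed less, and JUND was the gene with a lower effect in NCI-N87 (-0.28 ± 0.07, adjusted p = 0.0049, edgeR).

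IER2 was the weakest of these calls, at 0.28 ± 0.09 (adjusted p = 0.0251, edgeR). It was lost with upper-quartile factors (0.22, adjusted p = 0.0936), and without NCI-N87 vehicle replicate 3 (adjusted p = 0.0606), NCI-N87 T-DXd replicate 3 (0.0611), SNU-484 vehicle replicate 1 (0.0533) or SNU-484 T-DXd replicate 2 (0.0608), in a range of 7.83e-05 to 0.0936 over all alternatives. FOSL2 (0.18 ± 0.09, interval -0.01 to 0.37) and JUNB (-0.17 ± 0.09, interval -0.37 to 0.02) did not pass. Without SNU-484 vehicle replicate 3, FOSL2 passed at 0.26 (adjusted p = 0.0103, in a range of 0.0103 to 0.304 over all alternatives) and JUNB at -0.24 (adjusted p = 0.0475, in a range of 0.0475 to 0.306).

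The vehicle-treated lines were compared next, where a difference of line cannot be told apart from any difference of control. With vehicle, 7 of the 10 were higher in NCI-N87 and 2 lower, beside 42.0% of all genes higher and 43.3% lower. MYC was 6.67-fold higher in NCI-N87 (219 ± 3.31 against 32.8 ± 1.64 CPM, SD, n = 3, both lines scaled together, log2 difference 2.74 ± 0.04) and FOSL1 6.35-fold (2.67 ± 0.08). JUNB (1.79 ± 0.06), JUN (1.71 ± 0.06), FOSL2 (1.36 ± 0.06), IER3 (1.26 ± 0.07) and JUND (0.25 ± 0.05) were also higher. EGR1 was 3.602-fold and IER2 1.47-fold higher in SNU-484 (-1.85 ± 0.04 and -0.56 ± 0.07, as NCI-N87 minus SNU-484). FOS had nearly equal levels, with 29.5 ± 1.75 and 28.5 ± 0.529 CPM and an interval of the log2 difference of -0.08 to 0.18.

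Scaled to transcript length, so that genes can be set side by side, MYC had the highest level of the 10 in vehicle-treated NCI-N87 with 54.4 ± 0.862 CPM per kilobase. JUND (45.1 ± 0.917) and JUNB (43.8 ± 1.36) came next with overlapping libraries. IER3, IER2, EGR1, JUN, FOSL2, FOS and FOSL1 followed in that order, from 31.2 ± 0.738 down to 12.2 ± 0.188, and EGR1 overlapped JUN, and FOS overlapped FOSL1. With T-DXd IER3 became the highest at 56.6 ± 0.226, above MYC at 45.5 ± 1.38, and EGR1, at 17.6 ± 0.0554, the lowest together with FOS (17.6 ± 0.460). With trastuzumab the first 5 places (MYC, JUND, JUNB, IER3 and IER2) were as with vehicle.

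In vehicle-treated SNU-484 the order was another, with EGR1 first at 78.9 ± 2.09 CPM per kilobase, then JUND at 40.8 ± 0.862 and IER2 at 38 ± 0.648. IER3, JUNB and FOS, from 14.02 ± 1.05 to 13.5 ± 0.292, overlapped their neighbours. MYC had 8.79 ± 0.468, FOSL2 and JUN about the same as each other (6.84 ± 0.686 and 6.66 ± 0.262, overlapping), and FOSL1 was last at 2.07 ± 0.198. With T-DXd EGR1 dropped to the third place at 23.9 ± 1.13, and JUND led at 41.7 ± 2.61.

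**Figure D3:**
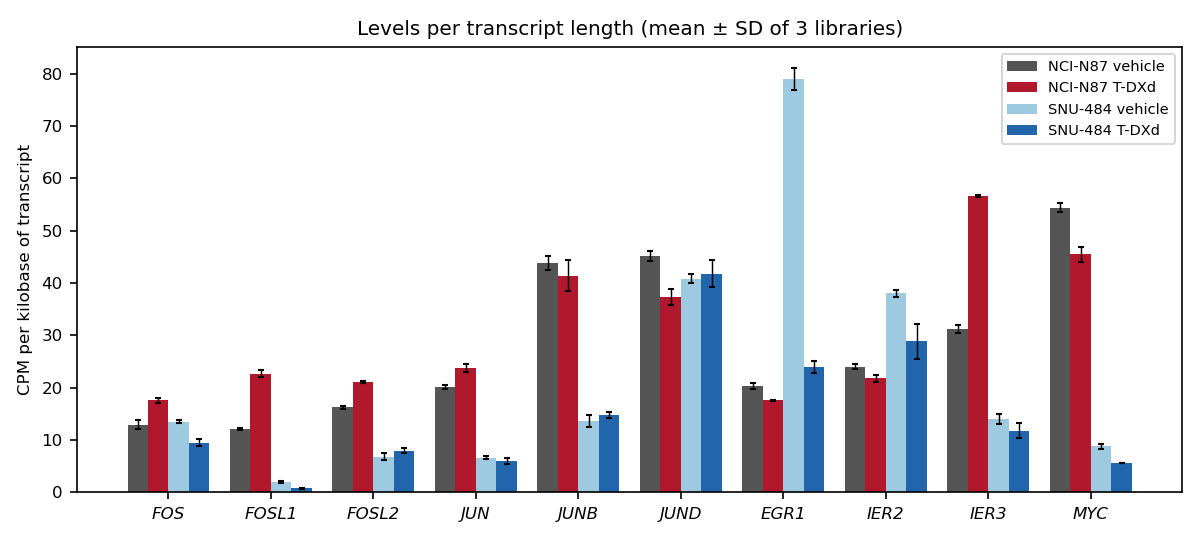
CPM per kilobase of transcript (vertical axis, starting at 0; bars are means and error bars the SD of 3 libraries) of the 10 genes with vehicle and T-DXd in both lines, each line scaled on its own. EGR1 is the tallest bar in SNU-484 with vehicle at 78.9, and IER3 the tallest with T-DXd in NCI-N87 at 56.6.

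Replicate libraries were close together for most of the 10 genes. The within-group SD of log2 CPM lay between the 8.7 percentile of all genes tested (EGR1) and the 48.3 percentile (JUNB) in NCI-N87. In SNU-484 it lay between the 15.5 percentile (EGR1) and the 60.5 percentile (IER3).

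Other immediate-early genes were then examined from a list of 40. This list and those that follow were written from general knowledge, with earlier results of these data known. In NCI-N87 with T-DXd 22 of 38 measured rose and 7 fell, beside 29.1% and 29.5% of all genes, at a median of 0.33 on the log2 scale beside -0.01 for all genes. Risers included IER5, a partner of heat shock factor (26.4 ± 1.79 to 49.0 ± 2.42 CPM, SD, n = 3, 0.90 ± 0.05, SE), the nuclear receptor NR4A1 (0.74 ± 0.08), ID2, an inhibitor of helix-loop-helix factors (0.74 ± 0.06), and the stress kinase PLK3 (0.73 ± 0.08). With trastuzumab 6 rose and 2 fell (median 0.02), beside 3.65% and 6.09% of all genes, among them CCN2 (0.32 ± 0.06), DUSP1, a phosphatase of ERK and JNK (0.26 ± 0.07), and BTG2 (0.24 ± 0.04) upward and ID1 (-0.21 ± 0.04) downward. In SNU-484 9 of 39 rose and 7 fell (median -0.06), beside 11.2% and 9.65% of all genes. ID1 (72.2 ± 2.91 to 111 ± 15.9 CPM, 0.62 ± 0.09), IER5L (0.54 ± 0.13), GADD45A (0.53 ± 0.11) and GADD45B (0.44 ± 0.09) were higher. GADD45A and GADD45B respond to DNA damage and stress. With T-DXd, GADD45A, GADD45B, ID2, RHOB and DUSP1 rose in NCI-N87 as well as in SNU-484, and CCN2 fell in both. IER5L and BTG2 fell in NCI-N87 and rose in SNU-484, while CCN1, MCL1 and PLK2 rose in NCI-N87 and fell in SNU-484.

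The other EGR factors of SNU-484 were named after their values were seen, beside EGR1. EGR3 fell (-1.58 ± 0.19, adjusted p = 0.00127, edgeR), and so did EGR4 (-0.96 ± 0.19, adjusted p = 0.0101, edgeR). EGR2 had -0.88 ± 0.51 and did not pass. All 3 are scarce there, with an average log2 CPM of -1.93 (EGR2), -0.03 (EGR4) and 0.59 (EGR3). NAB1 and NAB2, corepressors that bind EGR1, had -0.08 ± 0.07 and -0.19 ± 0.06 and did not pass. Of 14 EGR1 corepressors and known targets, 2 rose and 1 fell in SNU-484 (median -0.07), beside 11.2% and 9.65% of all genes. In NCI-N87 with T-DXd 7 rose and 3 fell (median 0.17), beside 29.1% and 29.5% of all genes, and FN1, which encodes fibronectin (25.2 ± 1.01 to 64.6 ± 0.950 CPM, 1.36 ± 0.04), and the growth factor gene PDGFB (1.19 ± 0.07) were among the risers while EGR1 itself fell. With trastuzumab 2 of the 14 rose and 3 fell (median -0.01), beside 3.65% and 6.09% of all genes.

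Of 17 other AP-1 partners and ATF factors, 6 rose and 4 fell in NCI-N87 with T-DXd (median 0.05), beside 29.1% and 29.5% of all genes. FOSB, the remaining FOS-family gene, rose from 4.21 ± 0.529 to 8.28 ± 0.495 CPM (SD, n = 3, 0.98 ± 0.12, adjusted p = 3.31e-06, edgeR), and the small MAF protein MAFF by 0.62 ± 0.06. In SNU-484 both fell, FOSB from 7.22 ± 0.112 to 4.79 ± 0.611 CPM (-0.59 ± 0.11, adjusted p = 0.00864, edgeR) and MAFF from 33.0 ± 1.27 to 21.5 ± 1.77 CPM (-0.62 ± 0.07). FOSB thus had the directions of FOS and FOSL1 in each line. JDP2, which represses AP-1, rose in SNU-484 (0.55 ± 0.06), and so did the stress factor ATF3 (0.40 ± 0.12), which also rose with T-DXd in NCI-N87. In SNU-484 3 of 15 rose and 4 fell in all (median -0.15), beside 11.2% and 9.65% of all genes. With trastuzumab ATF3 (0.25 ± 0.07), MAFF (0.21 ± 0.06) and CREB5 (0.17 ± 0.04) rose. These were 3 of 17 with 0 fallers (edgeR, median 0.03), beside 3.65% of all genes higher and 6.09% lower.

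Of 24 measured genes known to carry AP-1 sites, 15 rose and 5 fell in NCI-N87 with T-DXd, beside 29.1% and 29.5% of all genes. Their median was 0.44 beside -0.01 for all genes. PLAU, which encodes the protease urokinase, rose from 2.65 ± 0.0931 to 6.25 ± 0.775 CPM (1.24 ± 0.12). HBEGF (7.45 ± 0.0745 to 17.2 ± 0.836 CPM, 1.21 ± 0.07) and AREG (39.2 ± 1.48 to 64.6 ± 1.11 CPM, 0.72 ± 0.04), ligands of the EGF receptor, rose as well. The 5 that fell were the metalloproteinases MMP1 (-0.81 ± 0.34) and MMP7 (-0.31 ± 0.05), the metalloproteinase inhibitor TIMP1 (-0.07 ± 0.03), HMOX1, which degrades heme (-0.30 ± 0.04), and the matrix gene TNC (-0.32 ± 0.10). With trastuzumab 3 rose and 1 fell (edgeR, median 0.04), beside 3.65% and 6.09% of all genes, and PLAU, HBEGF and AREG were not among them. In SNU-484 2 of 18 rose and 4 fell (median -0.07), beside 11.2% and 9.65% of all genes. The collagenase MMP1, which fell in both lines, went from 10.9 ± 1.56 to 2.34 ± 0.418 CPM (-2.22 ± 0.16, adjusted p = 0.00014, edgeR). MMP10 fell from 16.4 ± 1.24 to 5.75 ± 0.302 CPM (-1.52 ± 0.09). TIMP1, again as in NCI-N87, fell from 5.36 ± 0.557 to 2.28 ± 0.536 CPM (-1.25 ± 0.17). Cyclin D1 (CCND1) rose (0.52 ± 0.06), as it also did with T-DXd in NCI-N87. Of the 17 genes tested in both lines, 11 had a higher effect of T-DXd in NCI-N87 and 0 a lower one, beside 22.5% and 19.4% of all genes (edgeR, median difference 0.76 beside 0.01 for all genes).

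Of 35 known MYC targets, 29 fell and 4 rose in NCI-N87 with T-DXd (median -0.23), beside 29.5% of all genes lower and 29.1% higher. In SNU-484, 26 of 35 fell and 0 rose (median -0.30, edgeR), beside 9.65% lower and 11.2% higher. RRS1, which acts in ribosome assembly, fell in both (24.4 ± 0.565 to 15.7 ± 0.415 CPM, -0.64 ± 0.05, and 20.8 ± 0.412 to 14.9 ± 1.36 CPM, -0.49 ± 0.08), and FBL, a methyltransferase of ribosomal RNA, fell in NCI-N87 (-0.57 ± 0.03). The nucleolar helicase DDX21 fell in SNU-484 (-0.59 ± 0.09) and rose in NCI-N87 (0.12 ± 0.02). With trastuzumab, where MYC lay within 0.06 of vehicle on the log2 scale by its interval, 17 of the 35 fell and 0 rose (edgeR, median -0.09), beside 6.09% of all genes lower and 3.65% higher, with LDHA (-0.17 ± 0.02) and SHMT2 (-0.17 ± 0.03) among them.

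Of 12 MYC partners and antagonists, 6 rose and 2 fell in NCI-N87 with T-DXd (median 0.10), beside 29.1% and 29.5% of all genes. In SNU-484 5 rose and 0 fell (edgeR, median 0.12), beside 11.2% and 9.65% of all genes. MXD1, which competes with MYC for MAX, rose from 10.6 ± 1.17 to 22.6 ± 0.132 CPM in NCI-N87 (1.09 ± 0.07, adjusted p = 8.89e-10, edgeR) and by 0.33 ± 0.09 in SNU-484. Its relatives MXD3 (0.46 ± 0.07 and 0.63 ± 0.09) and MXD4 (0.10 ± 0.04 and 0.86 ± 0.06) rose in both lines too. MXI1 fell in NCI-N87 (-0.45 ± 0.06) and rose in SNU-484 (0.38 ± 0.06). With trastuzumab 1 of the 12 rose and 1 fell, MXD3 (0.24 ± 0.07) and MYCBP (-0.20 ± 0.04), beside 3.65% and 6.09% of all genes.

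**Figure D4:**
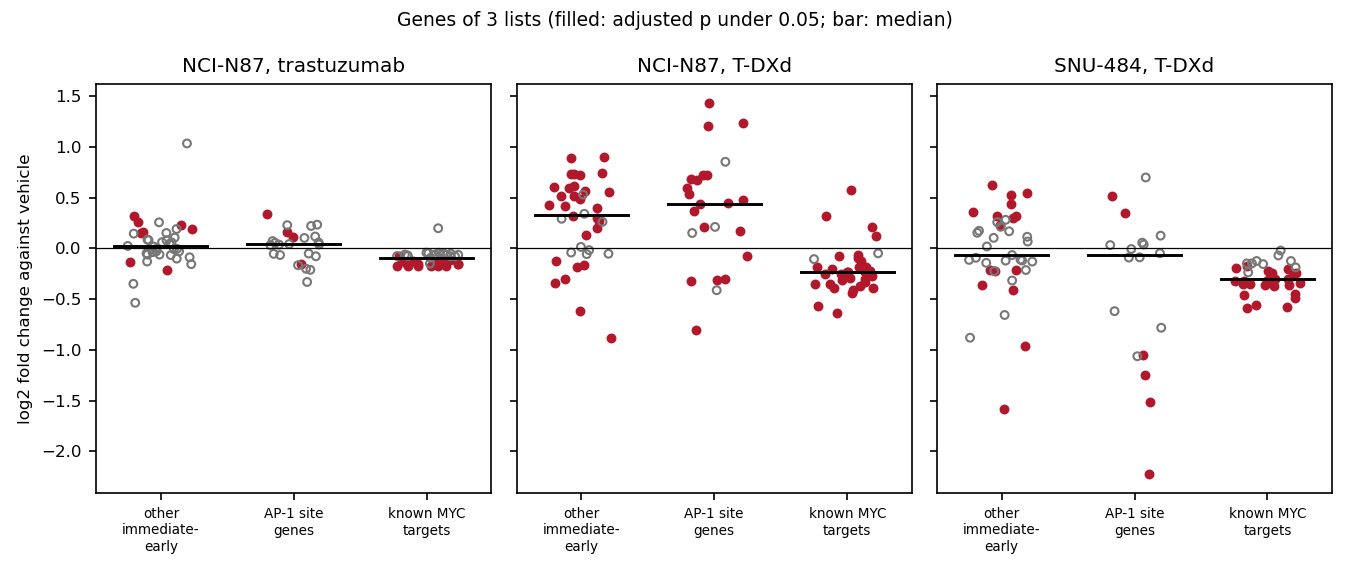
Log2 fold change against vehicle (vertical axis) of the genes of 3 lists in the 3 drug groups, with filled points at an adjusted p under 0.05 and a bar at the median of each list. The median of the AP-1 site genes is 0.44 with T-DXd in NCI-N87 and -0.07 in SNU-484, while that of the MYC targets is below 0 in both.

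Among 28 kinases of the ERK, JNK and p38 pathways and their serum response factors, 9 rose and 13 fell in NCI-N87 with T-DXd (median -0.02), beside 29.1% and 29.5% of all genes. The p38 kinase activator MAP2K6 fell (-0.78 ± 0.06), and MAPK11, a p38 kinase (0.70 ± 0.08), the ERK activator MAP2K1 (0.54 ± 0.03) and MRTFA, a coactivator of serum response factor (0.54 ± 0.04), rose. SRF itself, which binds CArG boxes, fell in NCI-N87 (-0.33 ± 0.04) and did not pass in SNU-484 (-0.13 ± 0.05, adjusted p = 0.0919, edgeR). It is named for the boxes found in EGR1. In SNU-484 1 of 28 rose and 4 fell (median -0.02), led by the ERK-dependent kinase RPS6KA3 (-0.49 ± 0.07), beside 11.2% and 9.65% of all genes. With trastuzumab 2 rose and 1 fell (median 0.00), beside 3.65% and 6.09% of all genes. Of 9 proteins that bind AU-rich elements, which destabilise immediate-early mRNAs, 1 rose and 5 fell in NCI-N87 with T-DXd, 0 rose and 3 fell in SNU-484, and 1 rose and 1 fell with trastuzumab (edgeR). The shares of all genes higher and lower were 29.1% and 29.5%, 11.2% and 9.65%, and 3.65% and 6.09% in the same order. HNRNPD fell in both lines with T-DXd (-0.50 ± 0.03 and -0.23 ± 0.06), and ZFP36L2 did so too (-0.18 ± 0.03 and -0.36 ± 0.06).

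The genes most like a member were sought by the root mean square distance of their log2 fold changes in the 3 drug groups, among 9980 genes averaging a log2 CPM of 2 or more in both lines. For FOSL1 the nearest was SCEL, a protein of the cornified envelope, at a distance of 0.17, with 1.17, 0.04 and -1.26 for T-DXd in NCI-N87, trastuzumab and T-DXd in SNU-484. UPP1 (0.31) and SLC5A3 (0.37) followed. EGR1 had no close neighbour, the nearest being STARD4 at 0.34 (-0.29, -0.13 and -1.14), then ZNF283 (0.37) and SPATA5 (0.39). Those of JUN were TBKBP1, ZRANB1 and FAM200B at up to 0.03, and those of MYC were ZNF749 (0.03), APBA1 (0.06) and SOWAHC (0.07). The distance takes no account of the adjusted p. TBKBP1 passed in none of the 3 drug groups, ZRANB1 with both drugs in NCI-N87 and FAM200B with T-DXd there. ZNF749 and SOWAHC passed with T-DXd in both lines, as MYC did, and APBA1 in SNU-484 only. Unlike MYC, SOWAHC also passed with trastuzumab (-0.11, adjusted p = 0.0305, edgeR).

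The 10 genes are short. Their spans ran from 1349 bases (IER3) to 24460 bases (FOSL2) with a median of 3614, and 9 of 10 were below the median of 19725 bases over all listed genes. JUN, JUNB and JUND have 1 exon, as 13.00% of genes do. Of the 10, 7 were in the shortest 20% of genes, up to 5663 bases in the NCI-N87 table. With T-DXd in NCI-N87, 15.6% of those genes rose and 29.8% fell (median -0.13), while 36.0% of the longest 20% rose and 27.8% fell (median 0.04). In SNU-484, 8.6% of the shortest 20% rose and 5.0% fell (median 0.03). Of the 7 short members, FOS, JUN and IER3 rose in NCI-N87 and JUND, EGR1 and IER2 fell, while JUNB did not pass. The part of gene length in these changes was not tested.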

How the data were processed

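RNA of 15 cultures was sequenced from stranded mRNA libraries. Read trimming was by Trimmomatic 0.38, alignment to GRCh38 by HISAT2 2.1.0 and counting by StringTie 2.1.3b, as the study's methods and submitters' notes state for what the authors did. The annotation release is not given in the sources used here. The deposited values that were used are raw counts, whole numbers for each gene in each library, with 1 table per line. The deposited normalized and transformed columns per library (45) and the authors' comparison columns (fold changes, test statistics and p-values) were not used.

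The model was edgeR's quasi-likelihood fit without robust weights (edgeR 4.0.16, R 4.3.3), after filterByExpr (minimum count 10, total 15) and TMM scaling, with Benjamini-Hochberg adjustment. It had 6 residual degrees of freedom for the 9 NCI-N87 libraries, 4 for the 6 SNU-484 libraries, and 8 for the joint fit of 12 libraries over genes listed for both lines. The SE is the size of the log2 fold change divided by the square root of F, and intervals are at 95%. The scripts were tested on simulated data. P-values measure the spread between these cultures only. Same-numbered replicates did not deviate together throughout (r from -0.06 to 0.20), so no pairing was used. Gene positions, spans and promoters came from RefSeq on GRCh38.p14, and exons and transcript lengths (canonical transcript) from GENCODE v44.

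The members and gene lists were chosen with earlier results of these data known, and the lists were written from general knowledge. Genes named from a list are up to 4 called genes per comparison with vehicle, those that changed most among genes averaging a log2 CPM of 1 or more. Others are given to follow a gene in both lines and were chosen after their values were seen. Some genes of the lists are counted but not reported by name here. Lists can share genes, such as TGFB1, NR4A1, ZFP36L1 and ZFP36L2, so their counts are not independent of each other. The alternatives were a DESeq2 fit (1.42.0), other scaling (RLE, upper quartile), no filter or at least 10 counts in every library, robust weights, a replicate block, only the groups compared, and leaving out each library.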

Additional observations from a re-analysis of the deposited data

Results flagged for a closer look

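For 8 of the 10 genes the effect of T-DXd differed between the lines by the joint test (edgeR, adjusted p under 0.05, given as NCI-N87 minus SNU-484 on the log2 scale), beside 22.5% of all genes higher and 19.4% lower. The values were 2.28 for FOSL1, 1.54 for EGR1, 1.14 for IER3, 0.96 for FOS, 0.41 for MYC, 0.39 for JUN, 0.28 for IER2 and -0.28 for JUND. For FOSL1 and FOS all 3 T-DXd libraries stood above all 3 vehicle libraries in NCI-N87 and below them in SNU-484. The call of IER2 was lost in 5 alternatives (adjusted p up to 0.0936, edgeR). The joint fit compares 2 lines, and the lines cannot be told apart from their HER2 levels, their epithelial markers or their controls. No group has 4 or more libraries, so libraries that stand apart within a group were not sought by a test.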

How the results depend on the processing

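Of 1020 recomputed values of the 10 genes in 6 comparisons, 988 kept their direction and their side of the threshold, 13 lost and 10 gained a call, and 9 changed sign. The sign changed only in values near 0 that passed under no setting in that comparison. With upper-quartile factors these were FOSL1 (0.000243) and MYC (0.00836) with trastuzumab. Over the runs without 1 library, MYC ran from -0.0237 to 0.00475 and FOSL1 from -0.0586 to 0.0337 with trastuzumab, JUNB from -0.0889 to 0.0139 in T-DXd against trastuzumab, and JUND from -0.0165 (without T-DXd replicate 3) to 0.0725 in SNU-484.

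Counts of called genes moved by over 1.5 times in runs without 1 library only. With trastuzumab 3 to 5 of the 10 genes passed, the 3 being left when vehicle replicate 3, trastuzumab replicate 1 or trastuzumab replicate 2 was dropped. Over all genes 993 to 1820 passed with trastuzumab in place of 1695, namely 993 when vehicle replicate 3 was left out, 1055 for vehicle replicate 1 and 1108 for trastuzumab replicate 1. In SNU-484 1466 to 5477 passed in place of 3526, with 5477 without T-DXd replicate 3, and 1726, 1466 and 1666 without vehicle replicates 1, 2 and 3, and 1836 without T-DXd replicate 2. Fewer libraries enter these fits. The split of called genes with trastuzumab was 635 higher and 1060 lower, and 754 and 818 with upper-quartile factors.

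The labels do not state whether same-numbered cultures belong together, and r in SNU-484 was 0.19, -0.06 and 0.20. With a replicate block 10, 5 and 8 of the 10 genes passed in T-DXd, trastuzumab and T-DXd against trastuzumab in NCI-N87, in place of 9, 5 and 8. For T-DXd in SNU-484, the line difference and the vehicle-treated lines 7, 9 and 9 passed, in place of 5, 8 and 9. Over all genes, in the same order, 10145, 1572, 9966, 4768, 6613 and 11860 passed, in place of 10194, 1695, 10039, 3526, 6150 and 12538. The block added JUNB in NCI-N87 (-0.08, adjusted p = 0.0347), FOSL2 (0.22, 0.0172) and IER3 (-0.26, 0.0461) in SNU-484, and FOSL2 in the line difference (0.18, 0.0328), all from edgeR. At 1.22 to 3.90 CPM, FOSL1 had the lowest levels of the 10 genes in SNU-484, and its call there was kept in all 13 alternatives.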
